A study of Mus musculus with 4 samples.

Results

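The genes described here encode the proteasome, the protease complex that degrades proteins marked with ubiquitin. They were chosen by name, as every symbol made of Psm, a letter from a to g and a number. The rule found 48 of the 55335 genes in the deposited tables, and all 48 are annotated as protein-coding. They were sorted by role into 8 alpha subunits, 7 constitutive beta subunits and 4 inducible or tissue-specific beta subunits of the 20S core. The 19S cap contributed 6 ATPases and 14 genes of the non-ATPase series, and 4 activators, 1 inhibitor and 4 assembly chaperones completed the set. Subunits under other names, such as *Adrm1* and *Sem1*, fall outside the rule and are given separately.

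The data come from C57BL/6 mouse oocytes, whose RNA was amplified by Smart-Seq2, a full-length cDNA method for small amounts of material. There were 2 libraries with the genotype label Control and 2 with the label Mutant. In the series a point mutation alters the splice site that governs exon 3 of *Ezh2*, the gene of the histone H3 lysine 27 methyltransferase of Polycomb repressive complex 2. The design names an Ezh2Long and an Ezh2Short line, and the Mutant label does not tell which one was used. The age of the mice, the oocytes pooled per library and the animals behind each replicate are not stated. All p-values therefore measure the spread between these libraries, which may be technical. *Ezh2* itself was at 313 and 239 CPM (counts scaled to the library total, adjusted by the TMM method) in controls 1 and 2, and at 176 and 223 CPM in mutants 1 and 2 (edgeR adjusted p = 0.219). A splice-site change does not have to alter this sum, so it does not check the labels.

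In the 20S core, a barrel of stacked rings, the alpha rings form the gate and the beta rings hold the catalytic sites of PSMB5, PSMB6 and PSMB7. The 19S cap binds ubiquitin chains, removes them, and unfolds the substrate with a ring of ATPases. Interferon induces PSMB8, PSMB9 and PSMB10, which replace the constitutive catalytic subunits in the immunoproteasome of immune cells. In oocytes, timed proteasomal degradation of cyclin B and securin is needed to pass through the meiotic divisions, and maternal transcripts supply the complex until the embryonic genome is active.

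Library totals lay between 25090032 and 26617816 counts. All 10 oocyte markers examined, among them *Zp3*, *Gdf9* and *Bmp15*, had counts in every library, as the label oocyte requires. The libraries also differed in markers of other cells. Over 20 cumulus and granulosa markers the summed level was 115 and 88.6 CPM in controls 1 and 2, 432 CPM in mutant 1 and 62.1 CPM in mutant 2, with 4, 10, 0 and 5 of the markers at 0 counts. Over 16 leukocyte markers it was 134 and 127 CPM in the controls, 131 CPM in mutant 1 and 325 CPM in mutant 2, with 7, 10, 4 and 0 markers at 0. *Srgn*, at 72.7 to 91.9 CPM in every library, carried much of that sum, and the other 15 leukocyte markers summed to 42.2, 43.5, 57.3 and 252 CPM in controls 1 and 2 and mutants 1 and 2. *Coro1a* and *Rac2*, which are typical of leukocytes, were at 64.3 and 23.3 CPM in mutant 2 and had 0 counts in the other libraries. By edgeR 0 of 10 oocyte markers passed (1 higher and 2 lower at an unadjusted p under 0.05; DESeq2 called 1 and 2, limma trend 1 and 0), and *Cd74* and *Lyz2* rose among 7 leukocyte markers tested (3 higher and 0 lower unadjusted; DESeq2 3 and 0, limma trend 2 and 0). Of 13 cumulus and granulosa markers tested 10 had a positive log2 fold change and *Kitl* alone passed, being lower in mutants, with 3 higher and 2 lower at an unadjusted p under 0.05 by edgeR. DESeq2 called 1 higher and 2 lower of these, limma trend 0 and 1, and edgeR with the replicate block 7 and 2. Over all tested genes edgeR called 3.75%, limma trend 4.76%, DESeq2 12.9% and the replicate block 7.83%. At an unadjusted p under 0.05 in edgeR, 12.5% of all tested genes were higher and 10.4% lower. The part of these cells in the proteasome values was not tested. Each call is given with and without each mutant library. This does not test it, because mutant 1 had the highest cumulus marker sum and mutant 2 the highest leukocyte marker sum. In such bulk material fewer cells of a type and less RNA per cell cannot be told apart.

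Levels of different subunits were compared in TPM, the deposited values per transcript length. The subunits of 1 complex differed widely in transcript level in these oocytes. Among the 14 constitutive genes of the 20S core, the mean over the 4 libraries ranged 519.7-fold, from 359.9 TPM for *Psma2* to 0.693 TPM for *Psmb4*. Those proteins occur in equal numbers in the assembled core.

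The highest members were *Psma2*, *Psma1* (336 TPM), *Psmb2* (315 TPM) and *Psmc6* (296 TPM), which each had a higher mean TPM than at least 96.7% of the tested genes. *Psma1*, *Psma2* and *Psmb2* made up 68.3% and 66.8% of the summed TPM of the 14 core genes in controls 1 and 2, and 59.1% and 60.8% in mutants 1 and 2. Both control shares were above both mutant shares, with the smallest p that 2 against 2 libraries allow (two-sided exact permutation test, p = 0.333). The genes in these shares were picked from the same data by their level. *Psma1*, the member called lower in mutants, is among them, so the shares are no separate result. At the other end stood *Psmb4*, *Psmb5* (1.98 TPM), *Psma3* (3.18 TPM), *Psmb1* (6.76 TPM) and *Psma6* (8.28 TPM).

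Partners in a dimer were also unequal. *Psmg1* and *Psmg2* encode a pair of chaperones that starts the alpha ring, and their means were 198 and 0.223 TPM. *Psmd14*, the deubiquitinase of the cap, and *Psmd7*, the inactive protein it pairs with, were closer, at 42.3 and 64.4 TPM. Of the 48 members, 37 exceeded 4.17 TPM, the median over all tested genes. Amplification before sequencing can favour some transcripts over others, and its effect on these ratios was not tested.

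**Figure D1:**
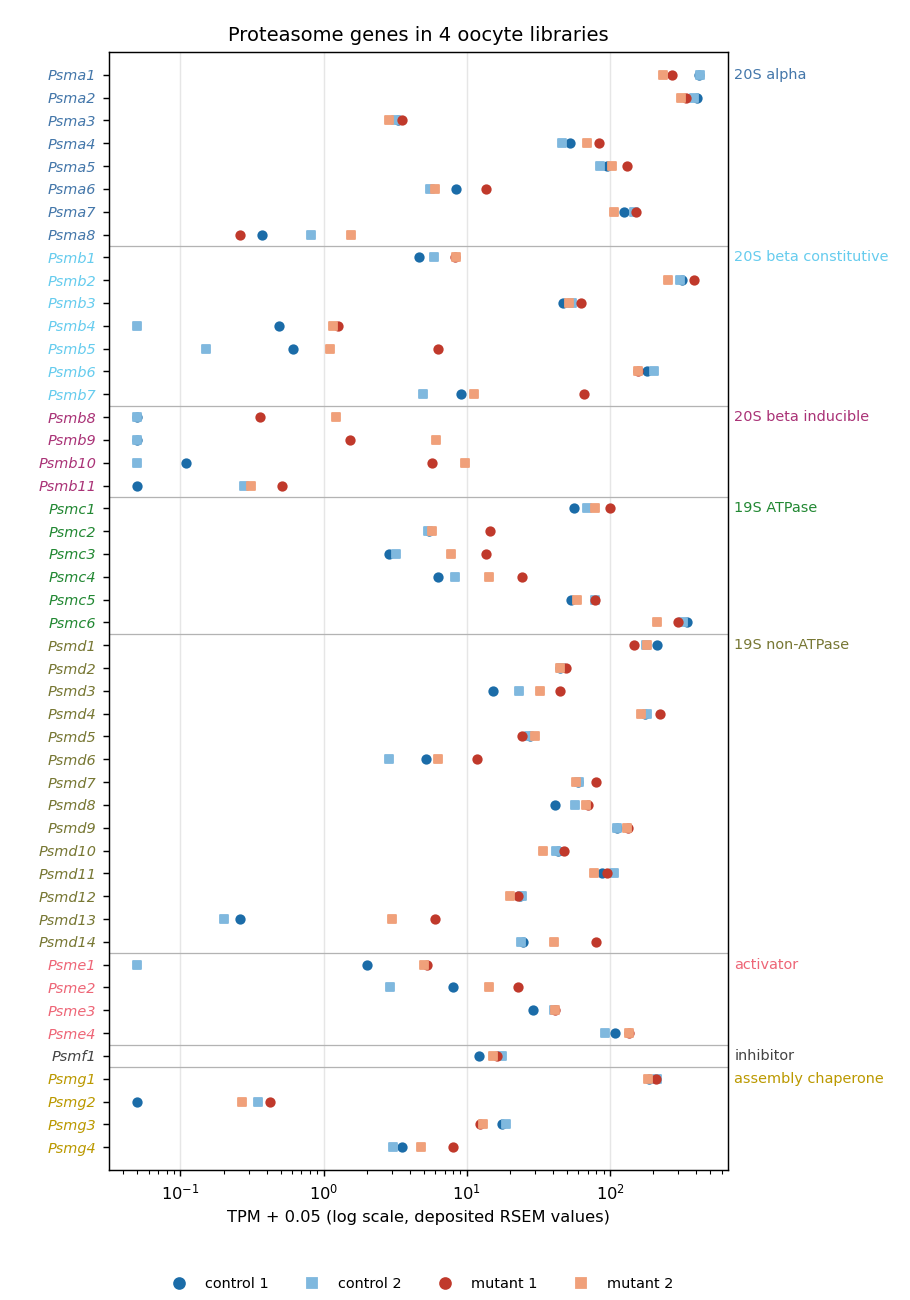
Deposited TPM of the 48 proteasome genes in each of the 4 libraries, on a logarithmic axis after adding 0.05, grouped by role; circles and squares are replicates 1 and 2, blue for control and red or orange for mutant. Within the 20S core *Psma2* had a mean of 359.9 TPM and *Psmb4* 0.693 TPM, and *Psmb8* and *Psmb9* were at 0 in both controls.

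Mutant oocytes were then compared with control oocytes to find transcripts that differ with the *Ezh2* genotype. Of the 48 members 44 were abundant enough to test. *Psmd13*, a subunit of the lid of the 19S cap, and the immunoproteasome gene *Psmb10* rose, while *Psma1* of the alpha ring fell (edgeR quasi-likelihood test, p adjusted by Benjamini-Hochberg over 15493 genes, threshold 0.05). These 3 genes are 6.82% of the tested members, and the share over all tested genes was 3.75% (1.77% higher and 1.98% lower in mutants). *Psmd13* and *Psmb10* passed the filter on low counts through the mutant libraries alone, which favours higher values. At an unadjusted p under 0.05 there were 9 members higher and 3 lower, where all genes gave 12.5% and 10.4%. DESeq2 called 8 members higher and 2 lower, or 22.7%, against 12.9% of all genes (6.56% and 6.30%). The trend method of limma called the same 3 as edgeR, with 4.76% of all genes.

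The median log2 fold change of the tested members was 0.16, and that of all tested genes 0.05. Without mutant 1 it was -0.0046. Over the 43 members tested with both countings it was 0.14 with the matrix counts and 0.072 with the RSEM counts. Positive values were found for 26 members and negative values for 18. For 28 of the 44, or 63.6%, no mutant value fell within the range of the controls or the reverse, and this held for 54.6% of all tested genes. Mutants were higher for 18 of the 28 and lower for 10, where all genes gave 28.8% and 25.7%. *Psmb9*, *Psmb10*, *Psmb4*, *Psmd13* and *Psme1* passed the filter on low counts through the mutant libraries alone, so counts over the tested members favour higher values.

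The calls depended on single libraries. Without control 1 or without control 2, which leaves 1 control, no member passed in edgeR, and the calls over all genes also fell. The log2 fold changes of *Psma1*, *Psmb10* and *Psmd13* were -0.89, 4.39 and 5.64 without control 1. Without control 2 they were -1.02, 5.26 and 5.02. Without mutant 1 all 3 genes passed, as did *Psmb9* and *Psmc6*, with 10.2% of all genes. Without mutant 2 *Psmd13* passed, with *Psmb7*, *Psmc3* and *Psmd14* and 6.02% of all genes, while *Psma1* (adjusted p = 0.0593) and *Psmb10* (adjusted p = 0.0944) did not. A block on the replicate number called 6 of 44 members (7.83% of all genes), no filter on low counts 6 of 48 (5.01%), and a mean of at least 10 CPM 2 of 27 (9.48%).

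**Figure D2:**
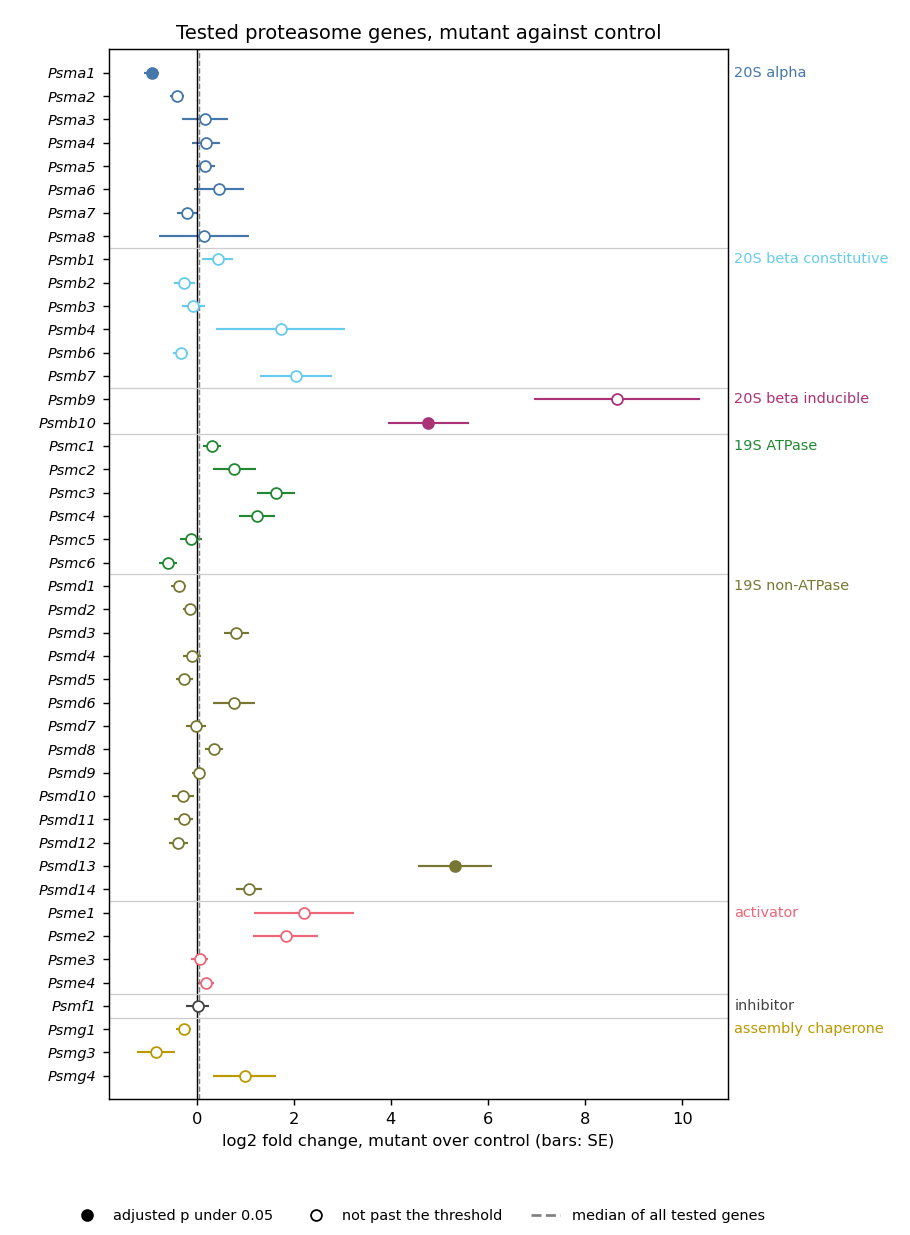
Fitted log2 fold change of mutant over control for the 44 tested proteasome genes, with bars of 1 SE, coloured by role; filled points have an edgeR adjusted p under 0.05 and the dashed line marks the median of all tested genes, 0.05. *Psma1* lies below 0 and *Psmb10* and *Psmd13* above it, and the other 41 points are open.

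In the alpha ring only *Psma1* passed. *Psma1*, on chromosome 7 (114264606 to 114276118, mm10), was at 277.5 and 261 CPM in controls 1 and 2 and at 151 and 132 CPM in mutants 1 and 2. Both mutants were thus well under both controls. The mean of 142 ± 13.0 CPM in mutants was 1.90-fold lower than the 269 ± 11.5 CPM of controls (SD, n = 2 in each group). The log2 fold change was -0.93 with an SE of 0.146 (edgeR adjusted p = 0.0300). Without a mutant library the log2 fold change was -1.04 (mutant 1 left out) and -0.85 (mutant 2 left out).

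The stretch before the *Psma1* start is shown because it is the only member that fell, with 2 matches to CCAAT, the letters bound by the factor NF-Y, in capitals (ATTGG is a match on the other strand). The sequence is the RefSeq promoter window outside annotated exons (GRCm38.p6, chr7:114276119-114276366, minus strand), written 5′ to 3′.
*Psma1*: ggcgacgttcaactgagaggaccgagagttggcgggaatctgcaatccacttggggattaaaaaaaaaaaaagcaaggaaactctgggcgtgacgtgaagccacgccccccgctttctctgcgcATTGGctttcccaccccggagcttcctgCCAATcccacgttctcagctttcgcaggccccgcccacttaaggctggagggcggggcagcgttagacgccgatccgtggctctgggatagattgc

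*Psma2*, the other abundant alpha gene, was at 605 and 554 CPM in the controls and 433 and 447 CPM in the mutants. Its groups did not overlap either, and the difference did not pass (log2 fold change -0.40, SE 0.142, adjusted p = 0.161). The remaining alpha genes overlapped between groups. *Psma3*, *Psma4*, *Psma5* and *Psma6* had log2 fold changes from 0.18 to 0.46, and each was highest in mutant 1. *Psma7* was at 59.4 and 64.7 CPM in the controls and 63.7 and 44.7 CPM in the mutants. Its germ-cell paralog *Psma8*, known from testis, had 8, 18, 7 and 24 counts in controls 1 and 2 and mutants 1 and 2. *Psma8* made up 0.137% to 1.41% of the summed TPM of the pair, without separation of the groups (two-sided exact permutation test, p = 1). Over the 8 alpha genes the median log2 fold change was 0.16. It turned to -0.069, -0.014 and -0.32 without control 1, control 2 and mutant 1.

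Among the constitutive beta genes none passed in edgeR or limma trend, 1 was higher at an unadjusted p under 0.05, and DESeq2 called 1, *Psmb7*. The shares of all tested genes higher in mutants were 12.5% unadjusted and 6.56% by DESeq2. *Psmb7*, which encodes the trypsin-like catalytic subunit, was at 4.39 and 2.74 CPM in the controls, 24.8 CPM in mutant 1 and 4.66 CPM in mutant 2. The value in mutant 1 stood apart from the other libraries (log2 fold change 2.05, SE 0.749, adjusted p = 0.170). Without mutant 1 the log2 fold change was 0.37. *Psmb7* overlaps *Nek6* on the opposite strand, and *Nek6* had 48, 14, 340 and 54 counts in controls 1 and 2 and mutants 1 and 2. It is not stated whether counting used strand, so reads of such a pair cannot be assigned with certainty. Mutant 1 was also the library with the most cumulus marker counts, whose part in this value was not tested.

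*Psmb5*, the chymotrypsin-like catalytic subunit and a common drug target, was under the filter, with 4, 2, 55 and 7 counts in the same order. It too was high in mutant 1 alone. *Psmb6*, the caspase-like subunit, was far more abundant and even between replicates, at 57.5 and 57.5 CPM in controls and 45.8 and 46.0 CPM in mutants (log2 fold change -0.32, SE 0.157, adjusted p = 0.276). *Psmb2* was at 148 and 133 CPM in controls, with 142 and 94.6 CPM in mutants. *Psmb4*, the least abundant of the class, had 8, 0, 18 and 12 counts. *Psmb1* and *Psmb3* had log2 fold changes of 0.44 and -0.07. The median of the 6 tested genes was 0.18. With the RSEM expected counts *Psmb4* was not tested, and over the other 5 genes the median was -0.069 with the matrix counts and -0.077 with the RSEM counts.

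Inducible beta genes were close to absent in controls. *Psmb9* and *Psmb10* were present in both mutants, while *Psmb8* and *Psmb11* had few counts in every library. *Psmb10* (chromosome 8, 105935735 to 105938444) had 1 and 2 counts in the control libraries, against 37 and 59 in mutants 1 and 2. It rose by a ratio of 29.2, with a 95% counting interval from 9.70 to 144, to 1.76 ± 0.638 CPM (SD, n = 2; log2 fold change 4.77, SE 0.840, adjusted p = 0.0392). *Psmb10* is the inducible counterpart of *Psmb7*. *Gm16156*, on the opposite strand, overlaps *Psmb10* over 2710 bases and had 0, 3, 6 and 0 counts in controls 1 and 2 and mutants 1 and 2. *Psmb9* (chromosome 17, 34181987 to 34187764), the counterpart of *Psmb6*, had 0 counts in both controls and 18 and 85 in the mutants. Its mutant mean was at least 32.0-fold higher than the floor of 3 counts over both controls (0.0600 CPM), and the difference did not pass (adjusted p = 0.0606). *Psmb9* passed with DESeq2 (adjusted p = 0.000708) and with the replicate block (0.0145). Its fitted log2 fold change, no bound with 0 counts in both controls, was 9.34 without mutant 1 and 7.06 without mutant 2.

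*Psmb8*, the counterpart of *Psmb5*, had 0 counts in both controls and 2 and 8 in the mutants, too few for the main fit. Its mutant mean was at least 3.10-fold over the same floor. *Gm20496*, on the opposite strand, overlaps *Psmb8* over 2139 bases. It had 2, 1, 5 and 13 counts in controls 1 and 2 and mutants 1 and 2, so reads of this pair cannot be assigned with certainty. *Psmb11*, the subunit of thymic cortical epithelium, had 1, 2, 5 and 6 counts, a ratio of 3.35 whose counting interval, 0.885 to 18.7, includes 1. Of the summed TPM of the 6 catalytic genes, the inducible ones took 0.0317% and 0% in the controls, 3.17% in mutant 1 and 9.11% in mutant 2 (two-sided exact permutation test, p = 0.333, the smallest that 2 against 2 libraries allow). Pair by pair, *Psmb9* took 0.932% of its sum with *Psmb6* in mutant 1 and 3.73% in mutant 2. *Psmb10* took 8.01% and 46.3% of its sum with *Psmb7*. *Psmb8* took 4.75% and 52.3% of its sum with *Psmb5*, the latter a share that rests on RSEM expected counts of 15 and 10. Counting intervals and floors cover counting error only, since amplified reads are not independent molecules.

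Part of the window before *Psmb10* is shown as the member of this class that rose (GRCm38.p6, chr8:105938445-105938642, minus strand, outside annotated exons). It is set beside that of *Psmb6* (chr11:70525107-70525356, plus strand), where capitals mark the letters TGACNNNGC of the antioxidant response element bound by NRF1 and NRF2. None of the 4 motifs searched is in the *Psmb10* stretch.
*Psmb10*: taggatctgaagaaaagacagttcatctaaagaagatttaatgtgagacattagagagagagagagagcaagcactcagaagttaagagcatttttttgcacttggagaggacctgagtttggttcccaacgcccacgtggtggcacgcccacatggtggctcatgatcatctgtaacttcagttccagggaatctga
*Psmb6*: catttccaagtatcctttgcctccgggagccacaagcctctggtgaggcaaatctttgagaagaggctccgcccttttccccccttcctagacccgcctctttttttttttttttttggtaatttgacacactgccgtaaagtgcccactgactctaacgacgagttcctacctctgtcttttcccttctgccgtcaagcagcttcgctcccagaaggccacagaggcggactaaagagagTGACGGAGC

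Genes of antigen presentation, which use the peptides of the immunoproteasome, were examined as a list of 12, of which 11 were tested. There were 3 that rose and none that fell (edgeR; 8 higher and 0 lower at an unadjusted p under 0.05; DESeq2 called 8 higher and 0 lower, limma trend 3 and 0). Over all tested genes the shares higher in mutants were 1.77% by edgeR, 12.5% unadjusted and 6.56% by DESeq2. *Tap1*, *Tap2*, *H2-D1* and *Erap1* passed the filter on low counts through the mutants alone, which favours higher values, and 2 of the 3 calls are among them. Over the other 7 genes the median log2 fold change was 1.08, against 0.05 for all tested genes, and 1 was called. *Tap1*, a peptide transporter gene that shares its promoter region with *Psmb9* and overlaps it on the opposite strand, had 0 counts in both controls and 43 and 87 in the mutants (adjusted p = 0.0317). *B2m*, the light chain of class I histocompatibility molecules, was at 13.1 and 11.7 CPM in controls and 40.8 and 30.8 CPM in mutants (log2 fold change 1.53, SE 0.233, adjusted p = 0.0270). *H2-D1* also rose, from 0 counts in both controls to 94 and 785. *Irf1*, an interferon-induced transcription factor gene, had a log2 fold change of -0.06 (adjusted p = 0.881).

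*Psmb8*, *Psmb9* and *Psmb10* were higher in mutant 2 than in mutant 1. Of the 11 antigen presentation genes tested, 4 were higher in mutant 1, *B2m*, *Calr*, *Irf1* and *Pdia3*, and the other 7 in mutant 2. Leukocytes express the inducible subunits strongly, and their marker *Ptprc* had 3 counts in mutant 1 and 1150 in mutant 2. The leukocyte markers named here were chosen after their values were seen. *Coro1a* and *Rac2* had 0 counts in mutant 1. They were among 4 of the 16 leukocyte markers at 0 there, against 7 and 10 in controls 1 and 2. *Cd74* of the same list had 76 counts in mutant 1 and 27 in mutant 2. The part of leukocytes in the values of the inducible subunits was not tested. Without mutant 2 *Psmb10* had a log2 fold change of 4.34 and *Psmb9* did not pass (adjusted p = 0.131).

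**Figure D3:**
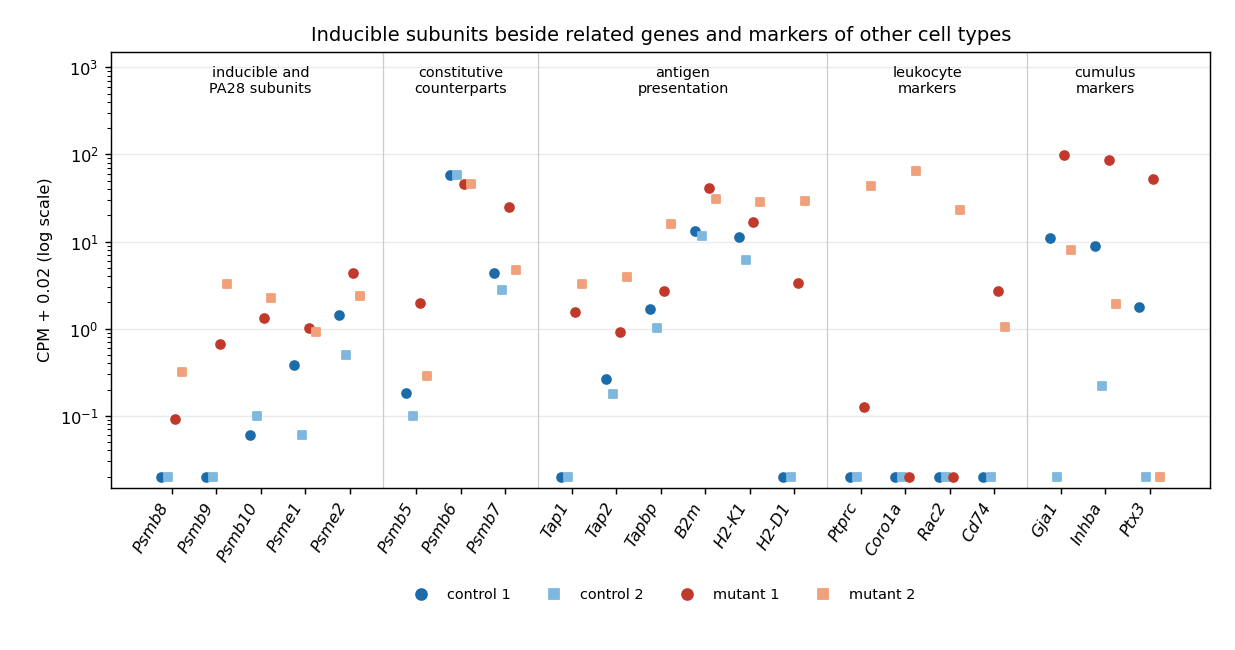
CPM plus 0.02, on a logarithmic axis, of the inducible and PA28 subunits, the constitutive catalytic subunits, antigen presentation genes and markers of leukocytes and cumulus cells in the 4 libraries; the genes shown from the marker lists were chosen after their values were seen, and levels are to be compared between libraries within a gene. *Psmb9*, *Tap1* and *H2-D1* were at 0 in both controls and higher in mutant 2 than in mutant 1, where *Gja1* reached 99.3 CPM.

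The 19S ATPase genes lay on both sides of 0. None passed in edgeR or limma trend, 2 were higher and 1 lower at an unadjusted p under 0.05, and DESeq2 called the same numbers. All tested genes gave 12.5% higher and 10.4% lower unadjusted, and 6.56% and 6.30% by DESeq2. *Psmc3* was at 2.82 and 3.02 CPM in controls and 11.5 and 6.65 CPM in mutants (log2 fold change 1.64, SE 0.400, adjusted p = 0.0736; 0.0487 with the replicate block). *Psmc4* was at 4.35 and 5.52 CPM in controls and 14.6 and 8.75 CPM in mutants (adjusted p = 0.11). For both genes each mutant was above each control, and mutant 1 was the higher. *Psmc6*, the most abundant ATPase gene, was at 129.7 and 120.1 CPM in controls and 96.1 and 70.7 CPM in mutants (log2 fold change -0.58, SE 0.187, adjusted p = 0.131). *Psmc6* thus had both mutants under both controls. *Psmc1*, *Psmc2* and *Psmc5* had log2 fold changes of 0.32, 0.78 and -0.12. The 6 proteins alternate in 1 ring, and the median log2 fold change of their genes was 0.55, or 0.08 without mutant 1.

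Among the 14 non-ATPase genes *Psmd13* rose and none fell. *Psmd13* (chromosome 7, 140881968 to 140898643), which encodes a lid subunit, had 3 and 2 counts in the control libraries, against 168 and 65 in mutants 1 and 2. The ratio was 42.6, with a counting interval from 17.98 to 132, and the mutant level was 4.20 ± 2.49 CPM (SD, n = 2; log2 fold change 5.33, SE 0.762, adjusted p = 0.0223). *Psmd13* passed the filter on low counts through the mutants alone. Its log2 fold change was 4.53 without mutant 1 and 5.82 without mutant 2. *Sirt3*, which overlaps the start of *Psmd13* on the opposite strand, had 6, 3, 7 and 13 counts. *Gm15542*, a processed pseudogene inside *Psmd13* on the same strand, had 37, 41, 47 and 32.

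*Psmd14*, the deubiquitinase that removes ubiquitin chains at the entry of the pore, was at 25.9 and 23.4 CPM in controls and 65.2 and 39.0 CPM in mutants. Each mutant was above each control (log2 fold change 1.08, SE 0.272, adjusted p = 0.0779), and the difference passed with the replicate block (0.0335), with DESeq2 (0.00474) and without mutant 2 (0.0210). It did not pass with limma trend (0.0762), with the RSEM counts (0.0812) or without mutant 1 (0.150), where the log2 fold change of *Psmd14* was 0.64. *Psmd3*, a lid subunit, was at 20.8 and 29.9 CPM in controls and 51.3 and 37.9 CPM in mutants (adjusted p = 0.127).

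*Psmd1*, which holds the cap together with *Psmd2*, was at 302 and 271 CPM in controls and 198 and 245 CPM in mutants (log2 fold change -0.37, adjusted p = 0.239). *Psmd2* had a log2 fold change of -0.14. *Psmd4*, an intrinsic ubiquitin receptor and by TPM the most abundant of the class, was at 133 and 127 CPM in controls and 139.7 and 103 CPM in mutants, so that the groups overlapped. Other lid genes lay on both sides of 0. *Psmd12*, *Psmd11* and *Psmd7* had log2 fold changes of -0.37, -0.26 and -0.01, and *Psmd8* and *Psmd6* of 0.36 and 0.78, none past the threshold.

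*Psmd5*, *Psmd9* and *Psmd10* encode chaperones of ATPase ring assembly and are not kept in the mature cap. *Psmd9* differed little, at 180.2 and 173 CPM in controls and 184 and 181 CPM in mutants (log2 fold change 0.05, SE 0.134). *Psmd5* and *Psmd10* had log2 fold changes of -0.25 and -0.28. Over the 14 genes the median was -0.05, with 6 positive and 8 negative values.

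No activator passed in edgeR, DESeq2 or limma trend, and 1 was higher at an unadjusted p under 0.05, as were 12.5% of all tested genes. *Psme4*, which encodes PA200, an activator linked to histone degradation, dominated the class with 66.2% to 73.6% of its summed TPM. It was at 442 and 349 CPM in controls and 454 and 455 CPM in mutants (log2 fold change 0.20, SE 0.165, adjusted p = 0.519). *Psme3*, which encodes the nuclear PA28 gamma, was at 52.5 and 66.8 CPM in controls and 62.1 and 62.7 CPM in mutants (log2 fold change 0.06, SE 0.179). The mutants lay just above the controls for *Psme4* and within their range for *Psme3*.

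*Psme1* and *Psme2*, which encode the interferon-inducible PA28 alpha and beta, were far lower. *Psme2* had 35, 12, 123 and 63 counts in controls 1 and 2 and mutants 1 and 2 (log2 fold change 1.83, SE 0.676, adjusted p = 0.173). *Psme1* had 9, 1, 28 and 24 counts in the same order (log2 fold change 2.21, SE 1.02, adjusted p = 0.257). For both, each mutant was above each control. Together they took 6.76% and 2.11% of the activator TPM in controls and 13.8% and 9.76% in mutants (two-sided exact permutation test, p = 0.333). *Psme2b*, a near-identical gene outside the name rule, had 1, 2, 11 and 12 counts, and reads may be divided between the copies.

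*Psmf1* encodes the regulator PI31, first described as an inhibitor of the core. It was at 16.7 and 22.4 CPM in controls and 19.6 and 20.2 CPM in mutants (log2 fold change 0.02, SE 0.235). Of the assembly chaperones none passed in edgeR, DESeq2 or limma trend, and none had an unadjusted p under 0.05 (0 higher and 0 lower). All tested genes gave 12.5% higher and 10.4% lower at that unadjusted p. *Psmg1* was at 93.9 and 102 CPM in controls and 86.6 and 76.2 CPM in mutants (adjusted p = 0.352). *Psmg3* and *Psmg4*, which act as a pair, had log2 fold changes of -0.83 and 0.99. *Psmg3* was even between replicates, at 4.47 and 4.52 CPM in controls and 2.52 and 2.52 CPM in mutants, and did not pass (adjusted p = 0.256). *Psmg2* had 0, 5, 7 and 4 counts and was not tested.

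The direction of the differences varied with read depth. Of the 17 tested members with a mean under 10 CPM, 16 had a positive log2 fold change, and *Psmg3* alone was negative. Their median was 1.24, and that of all 8961 tested genes at this depth 0.18. Leaving out the genes that passed the filter through 1 group only, 11 of 12 members were positive with a median of 0.78, against 54.8% and a median of 0.09 for all such genes. Between 10 and 100 CPM, 8 of 19 members were positive (median -0.07, and -0.02 for all genes). At 100 CPM and over, 2 of 8 were positive, *Psme4* and *Psmd9* (median -0.31, and -0.07 for all genes). The bands were set after the values were seen, and no test was run on them.

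Both mutant libraries took part in this pattern to different degrees. Against the control mean, the 12 members under 10 CPM that did not pass the filter through 1 group only had a median log2 ratio of 1.03 in mutant 1 and 0.44 in mutant 2. Those at 100 CPM and over had -0.18 and -0.36. Of the 44 tested members 33 were higher in mutant 1 than in mutant 2, and of all tested genes 51.7%. The part of the cumulus marker counts of mutant 1 in this was not tested.

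**Figure D4:**
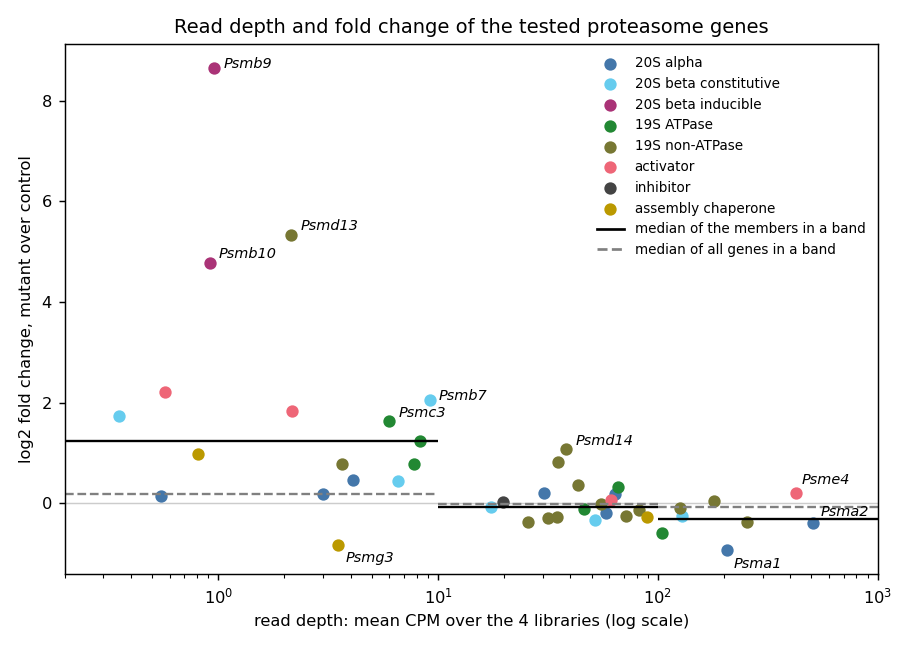
Fitted log2 fold change of the 44 tested proteasome genes against their read depth, the mean CPM over the 4 libraries on a logarithmic axis, coloured by role. Black lines give the median of the members in each of 3 depth bands (1.24, -0.07 and -0.31) and dashed grey lines that of all tested genes (0.18, -0.02 and -0.07).

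Partners of the proteasome outside the name rule were not called. Of 11 such genes, among them the core maturation factor *Pomp* and the cap-bound deubiquitinase *Usp14*, 0 passed in edgeR or limma trend. At an unadjusted p under 0.05, 0 were higher and 1 lower, and DESeq2 called 1 lower, *Sem1*. The shares of all tested genes lower in mutants were 10.4% unadjusted and 6.30% by DESeq2. *Sem1*, a small subunit of the lid, was at 19.8 and 20.6 CPM in controls and 11.3 and 9.02 CPM in mutants (log2 fold change -0.99, SE 0.247, adjusted p = 0.0760). The most abundant by TPM were *Usp14* and *Akirin2*, whose protein brings proteasomes into the nucleus, with log2 fold changes of -0.15 and 0.42 (adjusted p = 0.638 and 0.236).

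Regulators of subunit transcription were measured as well. None of 7 passed in edgeR, DESeq2 or limma trend, with 1 higher and 1 lower at an unadjusted p under 0.05. All tested genes gave 12.5% and 10.4% at that unadjusted p. The most abundant by TPM were *Nfya*, a subunit gene of NF-Y, and *Ngly1*, the gene of the enzyme that removes sugar chains from NRF1, with log2 fold changes of 0.01 and -0.26 (adjusted p = 0.978 and 0.411). The other NF-Y subunit genes, *Nfyc* and *Nfyb*, had log2 fold changes of -0.68 and -0.39 (adjusted p = 0.13 and 0.318), each with both mutants under both controls. Such an order was found for 25.7% of all tested genes. *Nfe2l1*, the gene of NRF1, which raises subunit transcription when proteasome activity is low, was at 55.5 and 76.5 CPM in controls and 79.0 and 82.4 CPM in mutants (log2 fold change 0.29, adjusted p = 0.427). *Ddi2*, the protease that activates NRF1, had a log2 fold change of 0.36 (adjusted p = 0.178). *Nfe2l1*, *Ddi2*, *Nfyc* and *Nfyb* were chosen after their values were seen.

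RefSeq promoter windows of the 250 bases before each start were found for 40 of the 48 members and searched on both strands for 4 motifs. CCAAT was in 14 of the 40, or 35.0%, and in 37.5% of the windows of all 27025 genes. The antioxidant response element TGACNNNGC was in 5, or 12.5%, against 11.5%, and the 5 were *Psmb5*, *Psmb6*, *Psmc6*, *Psmd9* and *Psmd12*. The interferon-stimulated response element, searched as GAAA, any 2 bases and GAAA, was in *Psmb3*, *Psmd4* and *Psmd9*, and the gamma-activated motif TTCNNNGAA in *Psmb8* and *Psmg1*, 7.5% and 5.0% of the members against 3.46% and 8.13% of all genes. A match of letters is no proof of binding, and these shares were not tested.

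The RSEM expected counts gave close values for most members. Of 43 tested with both countings 41 had the same sign, the exceptions being *Psma8* and *Psmd7*, and the median difference in log2 fold change was 0.03. The same 3 genes passed, with 3.89% of all genes, *Psmd13* at 5.27, *Psmb10* at 5.94 and *Psma1* at -0.94 on the log2 scale. Among the 36 members with at least 50 counts in every library, the expected count was 0.745 to 1.39 times the matrix count, lowest for *Psmd14* and highest for *Psmg3*.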

How the data were processed

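RNA of 2 control and 2 mutant oocyte libraries was measured, with groups taken from their titles. Unnormalized whole-number counts of every gene were deposited by the authors in 1 matrix, and for each library the expected counts, TPM, FPKM and lengths in bases were deposited, in the form of RSEM gene results per the file headers. Per the submitters' processing notes cutadapt 1.16, STAR and RSEM were used with mm10; the sources used here do not give the counter or its use of strand. TPM served for levels between genes. The deposited FPKM were not used.

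The matrix counts were fitted over all genes in R 4.3.3 with edgeR 4.0.16 (TMM, filterByExpr, glmQLFit, glmQLFTest, genotype as the only term, threshold 0.05 after Benjamini-Hochberg adjustment). The SE is the log2 fold change divided by the square root of F. Ratios per mutant library used log2 CPM with a prior count of 2. Intervals are exact at 95%. Positions are from GENCODE M21. The script was tested on simulated counts.

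Members, subunit classes, related lists and markers were chosen with earlier results of these data known. Values per library were given for members past the threshold, those with the smallest p, the highest and lowest of each class by TPM, and the catalytic, inducible, activator and inhibitor genes, with further members added after their values were seen. Related genes were named where past the threshold, otherwise the 2 most abundant, and any others, such as *Sem1* and *Irf1*, were added likewise. The list of ubiquitin, E1 and shuttle genes is not reported here. Alternatives were DESeq2 1.42.0, limma 3.58.1, other scalings and filters, a block on the replicate number, fits lacking 1 library, the RSEM expected counts (rounded to integers), fits lacking mitochondrial and ribosomal protein genes, and a threshold of 0.1.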

Additional observations from a re-analysis of the deposited data

How the results depend on the processing

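The 3 calls and the member median kept their side and sign under the RLE, upper quartile and library-total scalings, the RSEM counts, limma trend and the fit without mitochondrial and ribosomal protein genes. Over all genes, 581 calls became 1993 with DESeq2, 1322 with no filter on low counts, 1213 with the replicate block and 1721 at a threshold of 0.1, and ranged from 22 to 1688 with a library left out. Among members, 3 calls became 10 with DESeq2 and 6 in each of the other 3 settings, and ranged from 0 to 5 with a library left out; with a mean of at least 10 CPM required, *Psma1* and *Psmd14* passed and *Psmb10* and *Psmd13* were not tested.

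The member median of 0.16 was -0.073 with a mean of at least 10 CPM required, and ranged from -0.0046 to 0.20 with a library left out. With that filter the class medians were -0.15 (alpha), -0.20 (constitutive beta), -0.073 (ATPase) and 0.18 (activator), and no inducible gene was left. With no filter they were 0.43 (constitutive beta), 5.04 (inducible) and 0.35 (assembly chaperones). The inducible median was 4.03 with limma trend, the constitutive beta median -0.077 with the RSEM counts (over 5 genes, for which the matrix counts gave -0.069), and the non-ATPase median 0.046 with library totals only. With a library left out the class medians ranged from -0.32 to 0.18 (alpha), 0.048 to 0.48 (constitutive beta), 5.70 to 7.21 (inducible), 0.080 to 0.85 (ATPase), -0.17 to 0.074 (non-ATPase), 0.70 to 1.59 (activator) and -0.38 to -0.18 (assembly chaperones). The inducible medians are fitted values and no bound; with *Psmb9* at its bound the main one was 4.89. The cause of these shifts was not tested.

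Single members were compared with their main value in 598 fits: 544 kept direction and side, 19 passed and 8 lost the threshold, and 27 changed sign, all of the last in uncalled members. *Psma8* was at -0.043 and *Psmd7* at 0.0020 with the RSEM counts, *Psmb3* at 0.025 and *Psmd7* at 0.094 with library totals, and *Psmd7* at 0.039 with upper quartile scaling and at 0.043 with a mean of at least 10 CPM required. With a library left out the sign changed within the ranges -0.36 to 0.55 (*Psma3*), -0.22 to 0.50 (*Psma4*), -0.025 to 0.33 (*Psma5*), -0.27 to 0.93 (*Psma6*), -0.49 to 0.029 (*Psma7*), -1.06 to 0.78 (*Psma8*), -0.59 to 0.0039 (*Psmb2*), -0.27 to 0.084 (*Psmb3*), -0.36 to 0.066 (*Psmc5*), -0.36 to 0.095 (*Psmd4*), -0.28 to 0.20 (*Psmd7*), -0.030 to 0.068 (*Psmd9*), -0.11 to 0.20 (*Psme3*), -0.0059 to 0.37 (*Psme4*) and -0.18 to 0.20 (*Psmf1*).

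The replicate numbers are only numbers here: deviations of same-numbered libraries correlated at 0.18 over genes, with 2 pairs. With the replicate block *Psmb9*, *Psmc3* and *Psmd14* passed as well. Members with few counts, such as *Psmb8* and *Psmb11*, were under the filter of the main fit. With no filter on low counts these 2 genes did not pass (edgeR adjusted p = 0.440 and 0.737).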
